A study of Mus musculus with 2 samples.

Results

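The Mir183-Mir96-Mir182 cluster comprises 3 microRNA (miRNA) genes on mouse chromosome 6. Its members were found by gene identifier in the GENCODE annotation, and all 3 were present among the 1973 genes measured. The material was limb tissue of B6NCrl mouse embryos of both sexes at embryonic day 10.5, pooled from 69 embryos for replicate 1 and from 51 for replicate 2. These 2 libraries of small RNA (size range under 30, per the labels) are biological replicates of 1 group, and no genetic change or treatment is named. Whether fore- and hindlimbs were combined is not given in the sources used here. With no contrast between conditions, and a smallest two-sided sign-flip p of 0.5 for 2 libraries, levels are given per library and as mean ± SD, without p-values.

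A miRNA is cut from the stem of a hairpin in a longer primary transcript, first by Drosha in the nucleus and then by Dicer in the cytoplasm. It guides an Argonaute protein to messenger RNAs that pair with its seed, bases 2 to 8 from the 5′ end. The cluster is best known from sensory organs: its members are abundant in photoreceptors, in hair cells of the inner ear and in sensory neurons, and seed mutations of Mir96 cause hearing loss in mice. At this stage the limb bud holds proliferating mesenchyme, ectoderm and ingrowing vessels.

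The 5′ arms are shown because their seeds differ by a few bases only. The sequences were taken from RefSeq (GRCm38.p6), where all 3 genes matched by symbol, and the capitals mark the seed. The last line is miR-1271-5p, encoded by Gm24195 on chromosome 13 and not part of the cluster, which is the only other mature miRNA of the 1738 in that table with the seed of miR-96-5p.
miR-183-5p: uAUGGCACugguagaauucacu
miR-96-5p: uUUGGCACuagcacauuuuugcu
miR-182-5p: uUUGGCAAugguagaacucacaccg
miR-1271-5p: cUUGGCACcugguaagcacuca

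With the 5′ ends aligned without gaps and positions counted from 1 at the 5′ end, miR-96-5p and miR-182-5p shared 6 of 7 seed bases and differed there by C8A. The seeds of miR-183-5p and miR-96-5p also shared 6 of 7 bases and differed by A2U, which left a common run at bases 3 to 9. The arms of miR-183-5p and miR-182-5p differed in the seed at both places (A2U and C8A) and yet were the most alike over their whole length, with 18 of 22 bases identical (81.8%). For miR-183-5p and miR-96-5p 13 of 22 bases (59.1%) were identical, and for miR-96-5p and miR-182-5p 12 of 23 (52.2%). Of the 3 pairs, miR-183-5p and miR-182-5p thus shared the fewest seed bases (5 of 7) and the largest part of the whole arm. For miR-96-5p and miR-182-5p the part of the whole arm was the smallest, with 6 of 7 seed bases shared. Bases 2 to 7, a shorter seed match, were shared by miR-96-5p, miR-182-5p and miR-1271-5p and by no other entry of the table. No read was counted for Gm24195 in either library. A count of 0 was given a rough upper limit of 3 counts. That limit equals 0.838 CPM in replicate 1 and 0.839 CPM in replicate 2 (CPM, counts scaled to 1000000 per library). Within this seed group the counted reads therefore came from Mir182 and Mir96.

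The hairpins are printed with both arms in capitals, because the deposited tables count reads per hairpin and do not say which arm a read came from.
Mir183: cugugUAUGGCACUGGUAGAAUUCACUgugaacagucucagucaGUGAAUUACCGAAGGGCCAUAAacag
Mir96: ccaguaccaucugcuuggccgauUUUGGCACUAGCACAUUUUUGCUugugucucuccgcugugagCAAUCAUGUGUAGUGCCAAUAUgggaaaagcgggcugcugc
Mir182: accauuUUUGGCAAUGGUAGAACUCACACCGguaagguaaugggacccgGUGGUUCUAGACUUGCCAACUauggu

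The annotated hairpins were 70 bases long for Mir183, 106 for Mir96 and 75 for Mir182, against a median of 79 over the 1005 RefSeq hairpins. Their predicted folding energies (RNAfold) were -26.2, -47.9 and -29.9 kcal/mol. Per base these were -0.374, -0.452 and -0.399, on either side of the median of all hairpins (-0.406). The Mir96 hairpin, which was counted least (below), had the lowest energy per base of the 3. A miRNA encoded at several loci can lose reads that map to more than 1 place, so copies were searched for. None of the 6 mature sequences (both arms of each member) occurred with 2 or fewer mismatches in any of the 1004 other RefSeq hairpins, or exactly on either strand of another gene among 141767 GENCODE transcripts. The whole genome sequence was not used here. Among 3′ arms, miR-96-3p shared its seed with 1 other entry, miR-3475-5p, whose gene Mir3475 had 38 and 26 counts.

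In mm10 (GRCm38) coordinates, Mir183 (ENSMUSG00000065619) lies at chr6:30169668-30169737, Mir96 (ENSMUSG00000065586) at chr6:30169446-30169551 and Mir182 (ENSMUSG00000076361) at chr6:30165918-30165992, all on the minus strand. Transcription thus meets Mir183 first, Mir96 after a gap of 116 bases and Mir182 after another 3453. RefSeq places all 3 within the long noncoding RNA gene Mirc35hg (chr6:30158640-30174125), whose annotated start lies 4388 bases upstream of the Mir183 hairpin. Whether they are exonic or intronic in it was not analysed here. GENCODE M21 has no other gene over the span of the hairpins. Genes near it include the lincRNA gene Rncr4, 3155 bases upstream on the opposite strand. The transcription factor gene Nrf1 lies 12459 bases downstream on the opposite strand, and the ubiquitin-conjugating enzyme gene Ube2h 41551 bases upstream. Whether other genes lie closer was not searched.

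All 3 members passed the limit for detection, set at 10 counts in each library, which 17.6% of all genes passed. The sense reads in genes that set the CPM scale were 3581672 and 3576482 for replicates 1 and 2, out of 10064833 and 7218612 reads in all and 6817534 and 5873700 mapped reads. Intervals here are 95% exact binomial and cover counting error alone, since copies made by PCR are counted like separate molecules. Mir182 had 12006 counts in replicate 1 and 11898 in replicate 2, which is 3352 CPM (3292 to 3412) and 3327 CPM (3267 to 3387). On this scale its libraries overlapped within counting error. Mir183 had 9699 and 6872 counts, or 2708 CPM (2654 to 2762) and 1921 CPM (1876 to 1967). Here the libraries stood apart by more than counting error, with a CV of 24.0% against 0.536% for Mir182. That contrast depended on the scaling. Log2 ratios of replicate 2 to replicate 1 were 0.28 for Mir182 and -0.21 for Mir183 with TMM scaling (edgeR's trimmed mean of M values). With DESeq2 size factors they were 0.27 and -0.22, so that Mir182 then differed slightly more, and beyond counting error. Scaled to mapped reads they were 0.20 and -0.28, and Mir183 differed more. Mir96 had 3178 and 2740 counts, or 887 CPM (857 to 919) and 766 CPM (738 to 795), with a CV of 10.4%. The cluster together took 0.695% and 0.601% of the counts in genes.

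**Figure D1:**
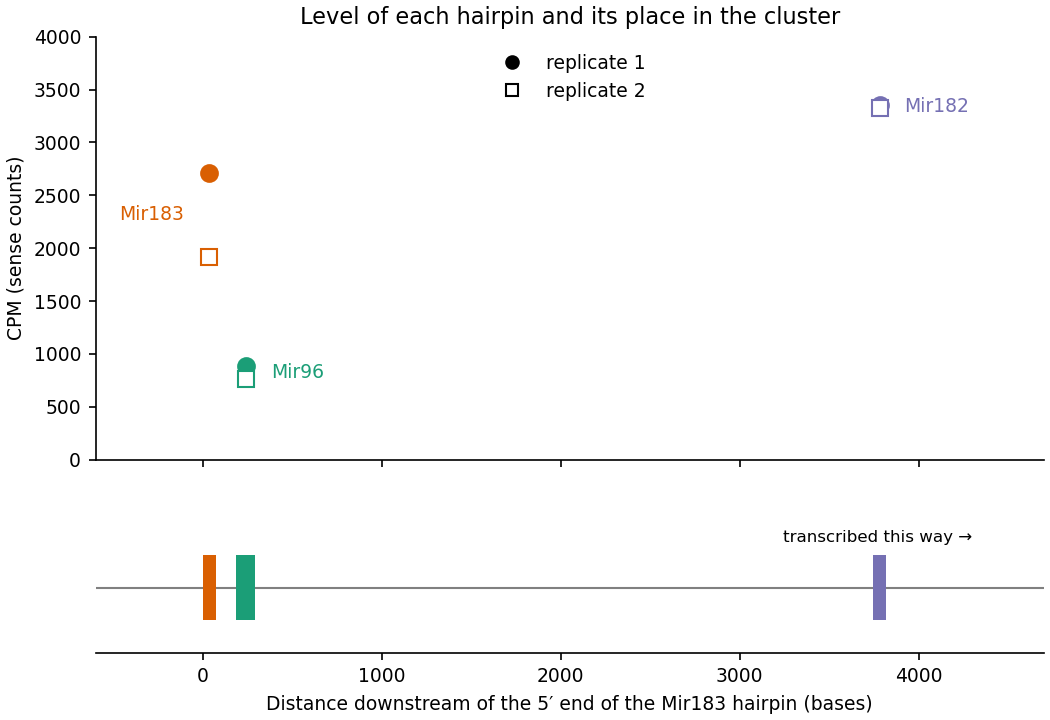
Upper panel: CPM of each hairpin in replicate 1 (filled circles) and replicate 2 (open squares). Lower panel: the 3 hairpins drawn to scale by distance in bases downstream of the 5′ end of Mir183. Mir182, 3745 bases downstream, had the highest level in both libraries, and Mir96, 186 bases downstream and next to Mir183, the lowest.

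The order Mir182, Mir183, Mir96 was the same in both libraries, but the ratios between members were not constant. Ratios within a library do not depend on scaling. Mir182 exceeded Mir96 on the log2 scale by 1.92 (1.86 to 1.97) in the first library and 2.12 (2.06 to 2.18) in the second, 2.02 ± 0.14 (SD, n = 2) or 4.05-fold. Mir183 exceeded Mir96 by a log2 ratio of 1.61 (1.55 to 1.67) and 1.33 (1.26 to 1.39), 1.47 ± 0.20 or 2.77-fold. The closest levels were those of Mir182 and Mir183, whose log2 ratio came to 0.31 (0.27 to 0.35) and then 0.79 (0.75 to 0.83). Its mean of 0.55 ± 0.34, or 1.46-fold, was of the same order as its spread, so the size of this difference was poorly fixed. The adjacent hairpins Mir183 and Mir96 thus differed more than Mir183 and the distant Mir182. These are ratios of reads, and whether library preparation took up each sequence equally was not measured.

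The shares of Mir96 in the cluster overlapped within counting error, 12.8% (12.4 to 13.2) and 12.7% (12.3 to 13.2). The shares of the other members moved in opposite directions by 7 percentage points. Mir182 went from 48.2% (47.6 to 48.9) in replicate 1 to 55.3% (54.6 to 56.0) in replicate 2, and Mir183 from 39.0% (38.4 to 39.6) to 31.9% (31.3 to 32.6). Grouped by bases 2 to 7 of the 5′ arm, Mir182 and Mir96 together had 4239 and 4093 CPM, 61.0% and 68.1% of the cluster. This grouping takes the reads as 5′ arms, which these counts cannot tell apart from 3′ arms.

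Among all 1973 genes, Mir182 ranked 51 by mean CPM (50 in replicate 1 and 51 in replicate 2), Mir183 ranked 60 (56 and 65) and Mir96 ranked 105 (105 and 99). Over the 348 detected genes this placed Mir182 within the top 14.7%, Mir183 within the top 17.2% and Mir96 within the top 30.2%. Reads that mapped to several places (21.9% and 25.4% of all reads) are missing from these levels. A miRNA encoded at several loci can therefore rank too low, and the members, for which no copies were found, too near the top. The size of this shift was not tested. Neighbouring ranks were not separated. Of the 20 genes nearest in rank (10 above and 10 below), 7 changed sides of Mir182 between the libraries, 9 changed sides of Mir183 and 11 changed sides of Mir96. Mir140, for example, which is directly above Mir182 in mean, went from 1978 CPM in the first library to 4767 CPM in the second, and all 4 genes nearest to Mir96 in rank (Mir421, Mir434, Mir25 and Mir200b) changed sides of it.

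**Figure D2:**
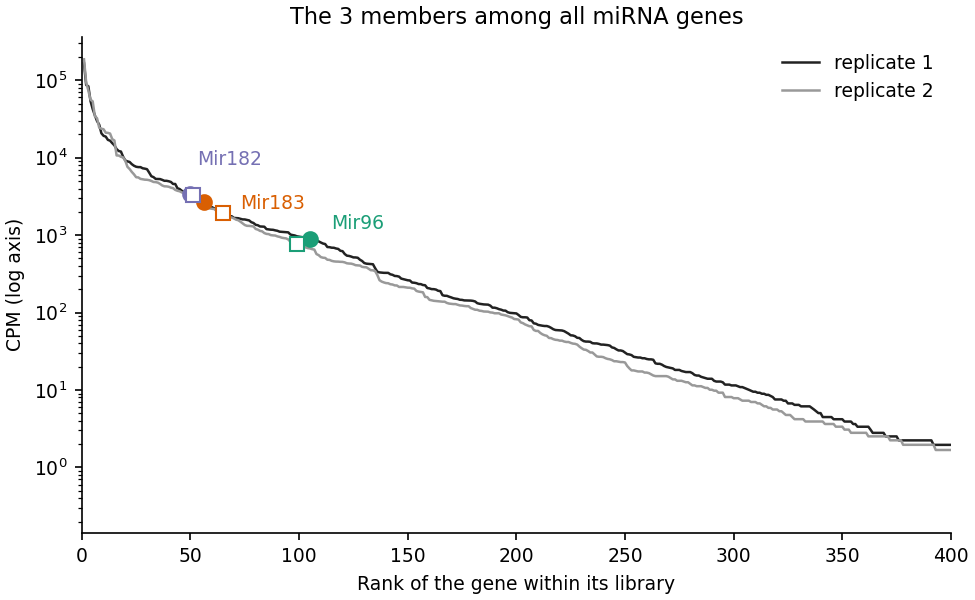
CPM on a log axis against rank for all genes with a count within the plotted ranks, in replicate 1 (dark line) and replicate 2 (grey line), with the members as filled circles (replicate 1) and open squares (replicate 2). Mir182 and Mir183 lie between ranks 50 and 65 and Mir96 near rank 100, where the curve falls smoothly and neighbouring genes have close levels. Reads that mapped to several places are missing from both lines, so these ranks can be too near the top.

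The genes most like each member were those with the smallest Euclidean distance in log2 CPM over the 2 libraries, which is a likeness in level and no more. For Mir182 these were Mir30d at a distance of 0.11 and Mir21a at 0.16, followed by Mir125a, Mir106a and Mir541. Mir30d had 3575 and 3470 CPM. For Mir183 the closest were Mir379 (0.20) and Mir429 (0.27), followed by Mir361, Mir872 and Mir15a. Mir429, of the epithelial Mir200 family, had 3066 and 2210 CPM. For Mir96 the closest were Mir434 (0.03), Mir25 (0.05) and Mir200b (0.10), another Mir200 family gene, followed by Mir455 and Mir540. All 5 genes nearest to Mir183 were lower in replicate 2, as were all those nearest to Mir182 and Mir96. So were 167 of the 250 genes that averaged 100 counts or more. Because the choice used both libraries, it favoured genes that moved like the member, and their direction is no separate result.

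No member differed by more than 2-fold between the libraries (0 of 3), against 27 of the 250 genes that averaged 100 counts or more (10.8%). Log2 ratios of replicate 2 to replicate 1, with a prior count of 1, were -0.01 (-0.05 to 0.03) for Mir182, -0.21 (-0.29 to -0.14) for Mir96 and -0.49 (-0.54 to -0.45) for Mir183. The median over the 250 genes was -0.27, with an SD of 0.66. Relative to that median Mir182 lay 0.26 above, Mir96 0.06 above and Mir183 0.22 below, so the members fell on both sides of the typical gene and within 1 SD of it. With TMM scaling, which moved the median of all genes to 0.02, the ratio was 0.08 for Mir96, and those of Mir182 and Mir183 are given above. The directions of Mir182 and Mir96 thus depended on the scaling, and that of Mir183 did not under the scalings tried. Replicate 1 also had the larger share of unmapped reads (32.3% against 18.6%), and the part of this in the ratios was not tested.

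**Figure D3:**
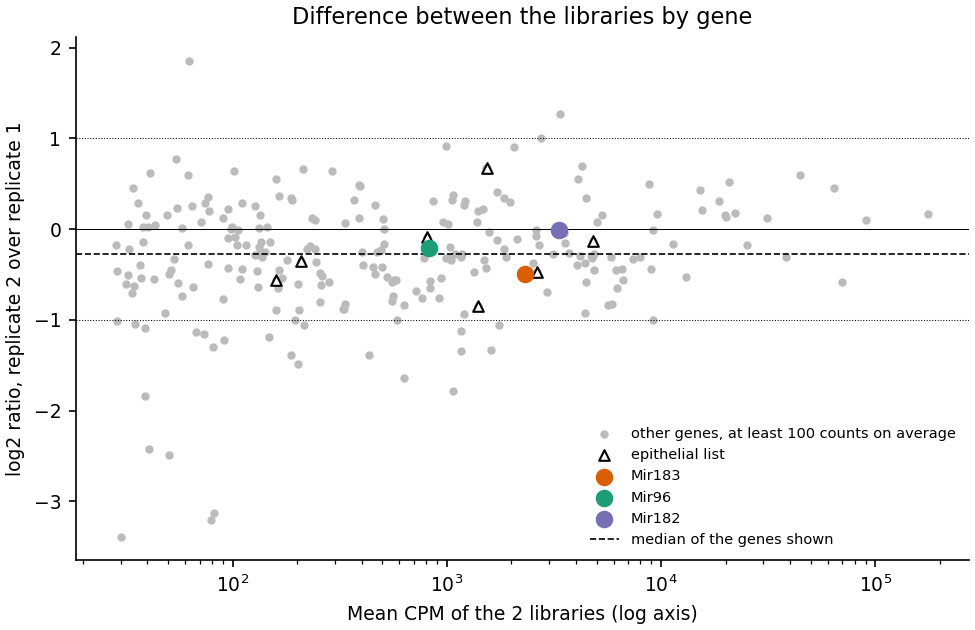
Log2 ratio of replicate 2 to replicate 1 against mean CPM (log axis) for the 250 genes whose mean count reached 100, with the members in colour and the epithelial list as triangles. The dashed line is the median (-0.27) and the dotted lines mark 2-fold, and all 3 members lie between the dotted lines.

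A change of the log2 ratio between cluster members could be set against other genes transcribed close together. Among 554 other pairs of genes averaging 100 counts or more, on 1 strand and linked by gaps of at most 10 kb, the median change between the libraries was 0.30 (quartiles 0.14 and 0.51). Large clusters give most of these pairs, and pairs of 1 cluster share genes. The change was 0.48 for Mir182 over Mir183, and 27.4% of the other pairs changed more. It was 0.28 for Mir183 over Mir96 (52.0% changed more) and 0.20 for Mir182 over Mir96 (64.4%). The order of the genes was the same in both libraries for 95.3% of the other pairs, as for all 3 pairs here.

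The members had closer levels than the genes of any other cluster compared. Clusters were taken as 3 or more miRNA genes on 1 strand with gaps of at most 10 kb, all detected, which gave 8 including this one. The SD of log2 CPM among Mir183, Mir96 and Mir182 was 1.04, against a median of 2.80 over the 7 others (lowest 1.79, highest 4.16). The highest member exceeded the lowest by 4.05-fold, against a median of 49.9-fold. The other clusters held 3 to 7 genes, and such a range can widen with the number of genes. Those of 3 genes spanned 16.7-fold, 19.0-fold and 49.9-fold. This is a description of 8 clusters and was not tested. In 4 of the 7 others some genes share a mature sequence with another locus. Those of their reads that were placed at several loci are counted at none, and the part of this in their spread was not tested. The cluster at the median of 49.9-fold (Mir23a to Mir24-2) holds such a gene. The 3 others without such a gene (Mir500 to Mir532, Mir429 to Mir200b and Mir25 to Mir106b) all had a larger SD than this cluster. They spanned 16.5-fold, 16.7-fold and 19.0-fold, less than that median.

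**Figure D4:**
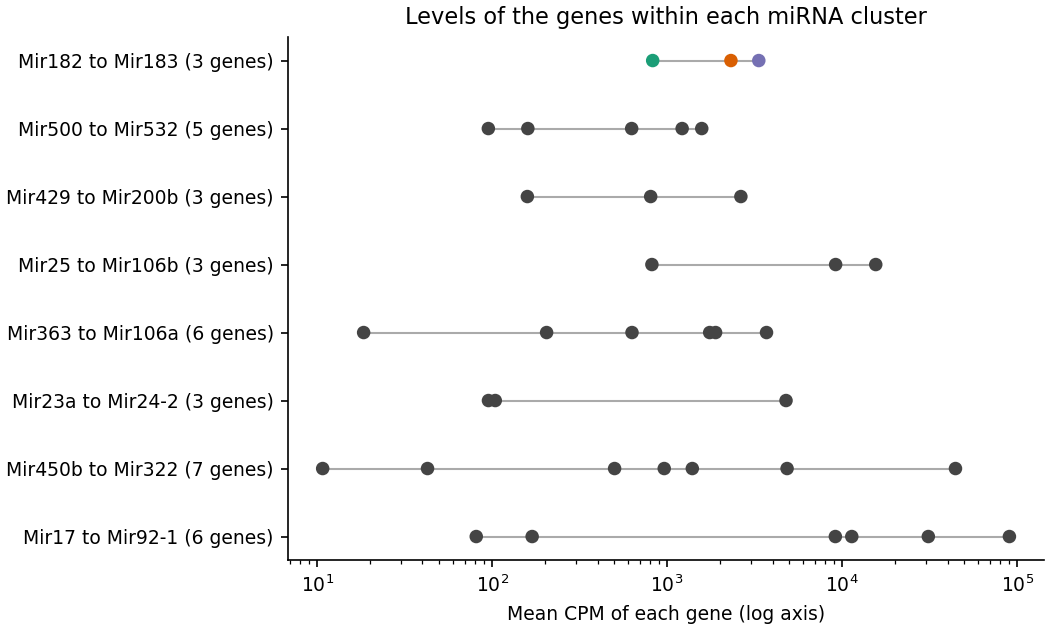
Mean CPM of each gene (points, log axis) in the 8 clusters in which every gene was detected, ordered from the smallest SD of log2 CPM at the top. The points of Mir96, Mir183 and Mir182, in colour, span 4.05-fold, and the genes of the other 7 clusters span more.

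The other 3-gene clusters, named after their values were seen except for the Mir200 genes, showed no common place for the least abundant member. In the epithelial cluster on chromosome 4, in order of transcription, Mir200b had 805 ± 34.7 CPM, Mir200a 159 ± 42.9 and Mir429 2638 ± 606 (SD, n = 2). There, as in the Mir183 cluster, the middle hairpin was lowest and the last one highest. In the Mir25 cluster on chromosome 5, a relative of the Mir17 to Mir92 oncogenic cluster, the middle hairpin, Mir93, was highest at 15558 ± 1593 CPM, and the last, Mir25, lowest at 818 ± 56.7. In the cluster on chromosome 8 the first hairpin, Mir23a, held 96.4% and 95.5% of the cluster's counts. The lowest gene there was Mir24-2 in replicate 1 (87.9 CPM, Mir27a 111) and Mir27a in replicate 2 (97.9 CPM, Mir24-2 103). In that cluster 1 gene shares a mature sequence with another locus, and reads placed at several loci are counted at no gene. The share of Mir23a can be shifted by this, which was not tested. Mir182, in a cluster without such a gene, held 48.2% and 55.3% of its cluster's counts.

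Against epithelial miRNA genes, which are expressed in ectoderm, the cluster was lower in sum. The list (Mir205, Mir203 and the Mir200 family) had 7 of 7 members detected and totalled 12334 and 10775 CPM, 1.78-fold the total of the 3 members. The cluster differed from it by -0.83 and -0.84 on the log2 scale. Ratios to some lists of other tissues moved little too, from -1.94 to -1.98 for endothelial Mir126a and from -4.75 to -4.82 for Hox miRNAs. The neural ratio went from 3.87 to 3.77 and that of the pigment cell gene from 6.87 to 7.12. Larger moves were seen from -1.47 to -1.97 for mesenchyme, 3.86 to 4.48 for erythroid and 6.37 to 5.49 for muscle genes. In the muscle list Mir206 went from 26.8 to 97.9 CPM. The other detected genes of that list (Mir208b, Mir208a and Mir499) were lower in replicate 2. The most abundant gene of the list was Mir205, an ectodermal miRNA with 5033 and 4587 CPM. Without it the mean log2 ratio was -0.06. That ratio can only rise when a gene leaves the list, and the cluster kept its own most abundant member. Mir182 was below Mir205 in both libraries, by log2 ratios of -0.59 (-0.62 to -0.55) and -0.46 (-0.50 to -0.43). Single epithelial genes spread more, with Mir203, a miRNA of stratified epithelium, at 1185 and 1886 CPM and Mir200c at 1798 and 1000. Of the 4 pairs of Mir182 or Mir183 with Mir205 or Mir429, 3 changed beyond counting error. The ratio of Mir182 to Mir429 went from 0.13 (0.09 to 0.17) to 0.59 (0.55 to 0.63), and that of Mir183 to Mir205 from -0.89 (-0.93 to -0.86) to -1.26 (-1.30 to -1.21). Mir183 and Mir429, which are near in level by the choice above, had -0.18 (-0.22 to -0.14) and -0.20 (-0.25 to -0.15). In whole tissue, fewer cells of a type and less RNA per cell cannot be told apart, and these counts do not say which cells held the cluster's miRNAs.

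**Figure D5:**
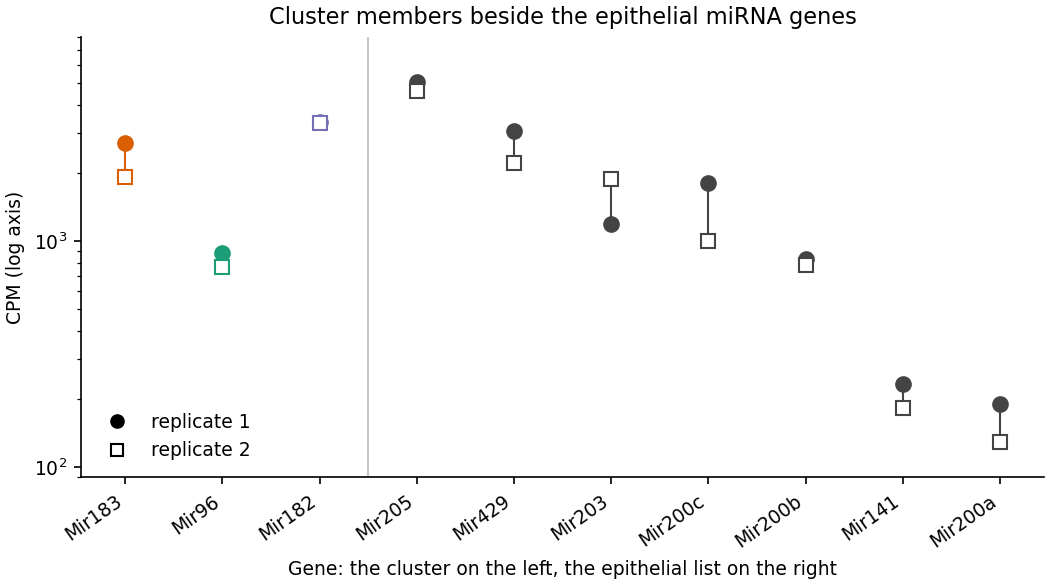
CPM on a log axis of the 3 members (left) and of the 7 epithelial genes (right) in replicate 1 (filled circles) and replicate 2 (open squares). Mir182 and Mir183 lie between Mir205 and Mir200b, and Mir96 lies beside Mir200b.

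The summed level of neural miRNAs could not be read from these tables. Of the 14 measured genes of that list, 10 share a mature sequence with another locus, and reads placed at several loci are counted at no gene. The counted reads, with 9 genes detected, came to 474 and 442 CPM, and the log2 ratio of the cluster to them was 3.82 ± 0.08, an upper value to the extent that reads were lost. The most abundant by count, Mir7-1, had 142 and 124 CPM, and next came Mir137 with 79.0 and 123. Oligodendrocyte-associated Mir219a-1 had 65.6 and 57.9 CPM and neuronal Mir128-1 had 67.0 and 44.5. Mir211, which lies in a melanocyte gene and stood for pigment cells, had 59.5 and 43.3 CPM. The part of sensory nerve cells in the reads of the cluster was not tested.

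The labelled tissue was checked against lists of its main cell types. Hox cluster miRNAs, which mark limb and trunk, totalled 187171 and 170106 CPM with 6 of 6 genes detected, and mesenchymal miRNAs 19260 and 23510 CPM with 5 of 5. The cluster was below the mesenchyme list by a log2 ratio of -1.72 ± 0.35. Most of that list's total was Mir214, without which the cluster was above it (1.19). The ratio can only rise when a gene leaves the list, and the cluster kept all its members. Of the 5 genes of that list, 3 share a mature sequence with another locus, Mir214 not among them. Their lost reads can make the total without Mir214 too low, and the part of this in the reversal was not tested. Endothelial Mir126a had 26707 and 23683 CPM. Erythroid genes totalled 480 and 269 CPM (3 of 3 detected), and muscle genes 84.0 and 133 CPM (4 of 8 detected). The cluster exceeded these by mean log2 ratios of 4.17 and 5.93. The muscle list also holds genes numbered as copies of the same miRNA, and none of those was detected. Reads placed at several loci are counted at no gene, so the muscle total can be too low and its ratio too high.

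Reads at the members came from the annotated strand. Antisense counts were 3 and 3 at Mir183, 2 and 3 at Mir182 and 0 and 0 at Mir96, at most 0.0436% of the reads of a locus (Mir183 in replicate 2). The highest upper limit of an interval was 0.135%, for Mir96 in that library. Over all genes the antisense share was 2.30% in replicate 1 and 1.70% in replicate 2.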

How the data were processed

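Per the labels, 2 pools of limb tissue gave 1 small-RNA library each. The values, as deposited, are unscaled counts of reads in each gene, in columns without a header, made by the authors from 1 alignment per library to mm10 with GENCODE M4, per the deposited readme texts. The columns were read as both strands, sense and antisense from their values, since each adds up with the unassigned rows to the same library total. No source used here gives the aligner, the counter or the trimming. Multimapping reads (21.9% and 25.4% of all reads) have their own row and are counted at no gene, so genes of several copies can be too low.

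Identifiers were matched without version to GENCODE M21 (GRCm38), which named 1894 of 1973 genes. CPM used sense counts over all gene rows. Copies were found from RefSeq hairpins, which matched 869 genes, so the flag is incomplete. TMM (edgeR 4.0.16) and DESeq2 1.42.0 size factors, in R 4.3.3, served as alternative scalings only. Other tools were Python 3.11.15, numpy 2.4.6, pandas 2.3.3, scipy 1.17.1, matplotlib 3.10.9 and RNAfold 2.7.2.

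The members, lists and comparisons were chosen with earlier results of these data known. Named genes are the members, the 5 nearest to each in level, up to 4 detected genes per list (all of the epithelial list), genes that share a seed, and the neighbouring genes. The pairs of clustered genes and the genes named for rank were chosen after seeing the data.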

Additional observations from a re-analysis of the deposited data

How the results depend on the processing

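Scaled to 1000000 mapped reads, in place of sense reads in genes, the mean levels were 3656 for the cluster, 1296 for Mir183, 466 for Mir96 and 1893 for Mir182. That denominator also holds reads given to no gene. With both strands counted Mir182 had 3273 CPM, a shift larger than its small SD. TMM and DESeq2 scaling moved these mean levels by less than 1 SD. Leaving out 1 of 2 libraries gives the value of the other library, so it is no check of stability: the log2 ratio of Mir182 to Mir183 was then 0.31 or 0.79. Ranks by mean CPM became 50 for Mir182 without replicate 2 and 99 for Mir96 without replicate 1. Between the libraries, the cluster total had a log2 ratio of -0.21, and 0.08 with TMM, 0.07 with DESeq2 size factors and 0.00484 when scaled to mapped reads. Genes over 2-fold numbered 3 higher and 24 lower in replicate 2. They were 6 and 14 with TMM or DESeq2 scaling, 5 and 15 when scaled to mapped reads, 8 and 46 among genes of at least 10 counts on average, and 84 and 122 among all genes with a count. No other cluster had a smaller spread with gaps of 5 or 50 kb, without either replicate, or with groups formed from detected genes alone (added after seeing the data). Without a filter 1 did, the Mir344 genes, whose total was 1.40 CPM in replicate 1 and 0 in replicate 2. Without the most abundant gene of a list the log2 ratio of the cluster to it was -0.06 (-0.0564) for epithelium, 4.31 for neural, 1.19 for mesenchyme (reversed, with 3 genes of several copies left in the list), -4.07 for Hox, 7.10 for erythroid and 7.16 for muscle. All of these can only rise, because a gene left the list and none left the cluster. Without genes of several copies the log2 ratio was 6.03 for neural, a value that can only rise when genes leave the list and so says nothing of lost reads. No paired analysis was possible because there was 1 group.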
